A study of Mus musculus with 13 samples.

Results

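The 33 genes described here are B cell and plasma cell genes, read in RNA-seq libraries of cells sorted from the mouse retina. They were taken by name from a list that holds no immunoglobulin gene, and all 33 were found among the 52550 genes of the count table. The AAV2-Cre group held 2 libraries from mice with floxed Kdm6a, the X-linked gene of the histone demethylase UTX, after intravitreal injection of a virus that encodes Cre. The AAV2-GFP group held 3 libraries from floxed mice given a virus that encodes GFP, which the labels set against the UTX knockout. Both groups were labelled P42 and were taken 3 days after optic nerve crush. The uninjured libraries came from wild type mice without virus, with 3 at P1, 3 at P14 and 2 at P21. Cells of every group were sorted by FACS for Thy1.2, a surface protein of retinal ganglion cells (RGCs) that mouse T cells also carry. Cre came from the virus and not from a transgene. The promoter that drives it and the number of animals behind each library are not given in the sources used here. The sex of the sequenced mice is not stated outright. The study writes the genotype of the injured adults as Kdm6a f/f, the form it gives for females.

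B cells recognize antigen through the B cell receptor, a membrane immunoglobulin whose signal is passed on by CD79A and CD79B. Co-receptors on the surface raise or dampen that signal, kinases and adaptors carry it inward, and a small set of transcription factors keeps the cell in its B cell state. The cytokines BAFF and APRIL keep B cells and plasma cells alive. Plasma cells switch off much of the receptor program and secrete antibody, for which they expand the endoplasmic reticulum. The healthy retina lies behind the blood-retina barrier and holds few lymphocytes, so these genes are not part of the usual program of retinal neurons, although a few of the listed genes also serve neurons or myeloid cells.

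Total counts per library were 13637602 to 16070720 in the injured adults and 30357454 to 38812917 in the uninjured libraries. Levels are given as CPM, counts scaled to the size of each library, here after TMM scaling over all 13 libraries. The RGC markers looked for, such as Pou4f1 and Sncg, summed to 348 and 299 CPM in AAV2-Cre, 307 to 364 CPM in AAV2-GFP and 7972 to 8850.1 CPM at P1. They summed to 1176 to 1314 CPM at P14, and to 679 and 356 CPM at P21, so P21 2 lay within the AAV2-GFP range. Pou4f2, a transcription factor of RGCs, was at 0 in both AAV2-Cre libraries. Rod markers, at 12112 and 26959.8 CPM in AAV2-Cre and 25489 to 30499 CPM in AAV2-GFP, were far lower in AAV2-Cre 1 than in the other injured libraries. Kdm6a itself lay at 108 and 111 CPM in AAV2-Cre and at 111, 96.2 and 117 CPM in AAV2-GFP (log2 fold change -0.02, edgeR, adjusted p = 0.963). The floxed part is exon 3, so a count over the whole gene does not check the deletion.

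The first question was whether B cell transcripts differed between Kdm6a knockout and control retinas after injury. Summed over the 33 genes, they lay at 1953 and 1888 CPM in AAV2-Cre, against 870, 1217 and 1028 CPM in AAV2-GFP. Every AAV2-Cre library thus lay above every AAV2-GFP library. Gene by gene, 26 of the 33 were higher in each AAV2-Cre library than in any AAV2-GFP library, 2 were lower in each, and 5 overlapped. Over all genes tested, 19.8% had every AAV2-Cre library above and 15.7% every one below. The 33 genes were chosen with earlier results of these data known, so contrasts with all genes, here and below, are not independent evidence. In these bulk samples, more B cells and more RNA per B cell cannot be told apart. Some of the 33 genes, such as Cd72, are also transcribed in other cells, and the part of those cells in the sums was not tested.

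A gene was called when its Benjamini-Hochberg adjusted p was under 0.05 over all 18395 genes tested in a fit of these 5 libraries with edgeR's quasi-likelihood test. Of the 32 genes tested, 4 were called higher and 0 lower, beside 1.33% called higher and 0.294% called lower over all genes. At an unadjusted p under 0.05, 20 were higher and 1 was lower, beside 8.57% and 7.90% of all genes. DESeq2 called 15 higher and 1 lower, beside 758 and 488 of the 28763 genes with a value. The median log2 fold change was 0.98, beside -0.03 over all genes. Tnfrsf17 was under the filter on low counts. Leaving out an AAV2-Cre library left 1 in that group, and the calls were lost. The median log2 fold change was then 0.94 without AAV2-Cre 1 and 1.08 without AAV2-Cre 2. Without AAV2-GFP 3, 2 passed in edgeR, beside 253 higher and 30 lower of all 17747 genes. The coefficient of variation between replicates in this fit was 0.340.

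**Figure D1:**
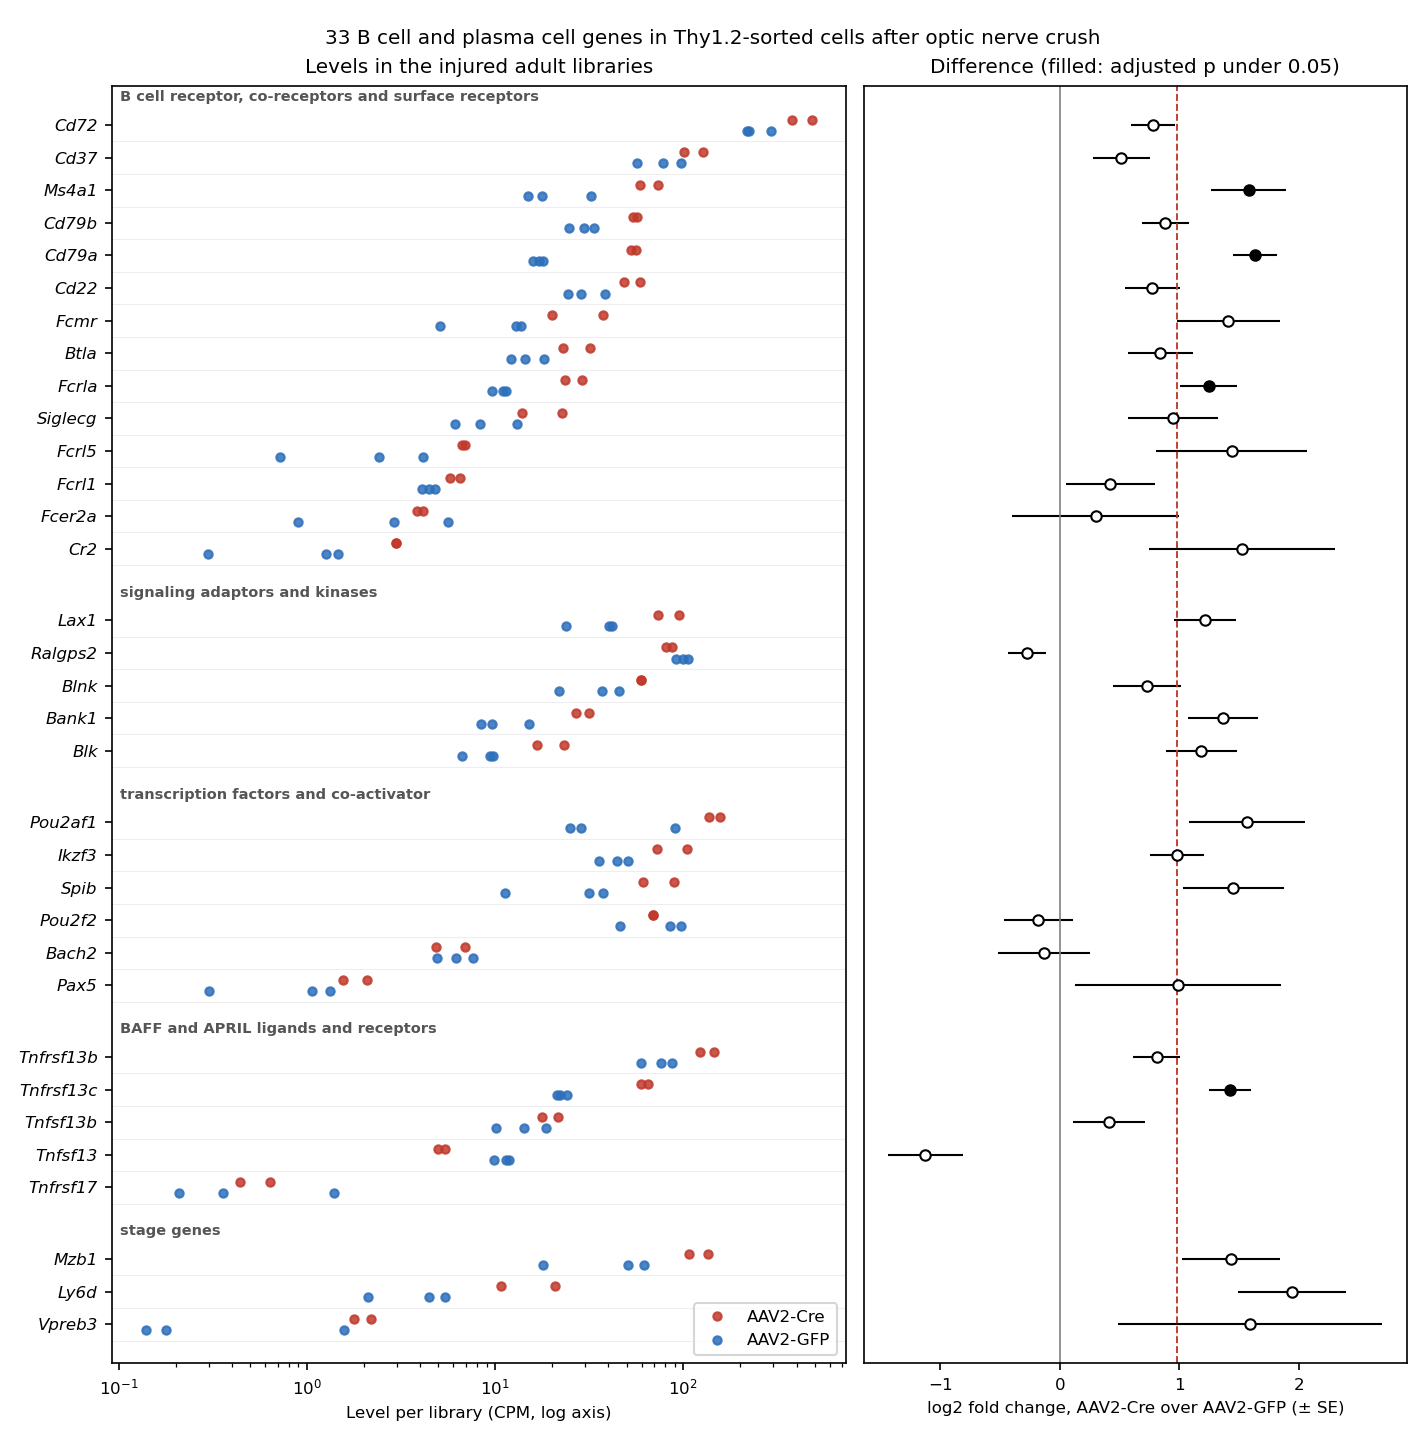
Levels of the 33 genes in each injured adult library in CPM on a log axis (left), and log2 fold changes of AAV2-Cre over AAV2-GFP with their standard errors (right), grouped by role. Filled symbols are the 4 genes called, and the dashed line marks the median of 0.98. Ralgps2 and Tnfsf13 have both AAV2-Cre libraries to the left of the AAV2-GFP libraries.

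Among receptors and other surface proteins, 14 genes were tested, 3 were higher (Cd79a, Ms4a1 and Fcrla) and 0 were lower, and all 14 had a positive fold change, with a median of 0.92. At an unadjusted p under 0.05, 9 were higher, and DESeq2 called 7 higher. Cd79a, the signaling chain of the B cell receptor (chr7:24897381-24902197, GRCm38), carried 52.5 and 55.9 CPM in AAV2-Cre, against 17.1, 17.9 and 15.9 CPM in AAV2-GFP. The replicates lay close together and the groups far apart, and Cd79a rose by 1.63 on the log2 scale (SE 0.19, edgeR, adjusted p = 0.00827). Its log2 fold change was 1.70 without AAV2-Cre 1, the library low in rod markers, but the adjusted p was then 0.0963 in edgeR. Its partner chain Cd79b carried 54.4 and 56.5 CPM in AAV2-Cre, against 24.6, 33.4 and 29.5 CPM in AAV2-GFP. These groups did not overlap either, yet the difference of 0.88 was not called (SE 0.20, edgeR, adjusted p = 0.0663).

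Ms4a1, which encodes the B cell surface protein CD20, carried 73.7 and 58.6 CPM in AAV2-Cre, against 32.2, 17.8 and 14.9 CPM in AAV2-GFP, and rose by 1.58 on the log2 scale (SE 0.31, edgeR, adjusted p = 0.0477). AAV2-GFP 1 was the highest control by a wide margin, and the call was lost without AAV2-GFP 2 or without AAV2-GFP 3. Fcrla, an Fc receptor-like protein that stays inside B cells, carried 28.8 and 23.4 CPM in AAV2-Cre, against 11.4, 9.64 and 11.0 CPM in AAV2-GFP. It rose by 1.25 (SE 0.24, edgeR, adjusted p = 0.0442), a call that was lost in edgeR when any library was left out.

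Cd72, an inhibitory co-receptor that is also transcribed in some myeloid cells, had the highest level of all 33 genes. It carried 379 and 486 CPM in AAV2-Cre, against 218, 292 and 225 CPM in AAV2-GFP, and its log2 difference of 0.78 was not called (SE 0.18, edgeR, adjusted p = 0.0781). Per kilobase of exon, Cd72 also led, at a mean of 126 CPM per kb in AAV2-Cre and 71.5 CPM per kb in AAV2-GFP. Of its 3422 exon bases, 1423 overlap exons of the neighbouring gene Tesk1, and whether counting used strand is not given, so reads of both genes may be mixed.

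Cd22, a sialic acid-binding inhibitor of the receptor, and Siglecg, its relative, had log2 differences of 0.77 and 0.95. Cd37, a tetraspanin of leukocytes, differed by 0.52. Fcmr, the receptor for the Fc part of IgM, and Btla, an inhibitory receptor shared by B and T cells, differed by 1.41 and 0.84. EdgeR called none of these 5 and DESeq2 called Cd22 and Fcmr higher, and all 5 had every AAV2-Cre library above every AAV2-GFP library. Fcrl1 and Fcrl5, Fc receptor-like proteins, lay at 6.14 and 6.78 CPM on average in AAV2-Cre and at 4.45 and 2.44 CPM in AAV2-GFP. Cr2, the complement receptor of follicular and marginal zone B cells, came next to the bottom per kilobase, at a mean of 0.367 CPM per kb in AAV2-Cre, and had 2.98 and 2.97 CPM in AAV2-Cre and 1.46, 1.26 and 0.297 CPM in AAV2-GFP. Fcer2a, the low-affinity IgE receptor, was the surface gene whose groups overlapped, at 4.11 and 3.86 CPM in AAV2-Cre and 2.91, 5.60 and 0.891 CPM in AAV2-GFP.

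Of the 5 kinases and adaptors, 0 were called in edgeR, 4 were higher at an unadjusted p under 0.05, and DESeq2 called 3 higher. Lax1, a membrane adaptor of B and T cells, had the highest mean level per kilobase of the group in AAV2-Cre, 36.6 CPM per kb, with 95.4 and 73.7 CPM in AAV2-Cre, against 23.8, 41.9 and 40.4 CPM in AAV2-GFP (log2 fold change 1.21, edgeR, adjusted p = 0.0626). Blk, a Src family kinase of B cells, had 23.3 and 16.6 CPM in AAV2-Cre and 9.36, 9.70 and 6.65 CPM in AAV2-GFP. Bank1, a scaffold of receptor signaling, differed by 1.36 on the log2 scale and Blnk, the adaptor that links the kinase Syk to its targets, by 0.73. Ralgps2, an exchange factor for Ral GTPases, went the other way. It had 86.9 and 81.4 CPM in AAV2-Cre, against 91.6, 106 and 99.5 CPM in AAV2-GFP, a log2 difference of -0.28 that was not called (SE 0.16, edgeR, adjusted p = 0.433). Its lowest value in the series was 69.3 CPM, at P14, so that it was transcribed in every library.

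Among transcription factors, the positive differences lay in Pou2af1, Spib, Ikzf3 and Pax5. Of 6 tested, 0 were called in edgeR, 3 were higher at an unadjusted p under 0.05 and DESeq2 called 2 higher. Pou2af1, the co-activator that B cells and plasma cells use with octamer-binding factors, carried 156 and 136 CPM in AAV2-Cre, against 28.6, 90.2 and 24.9 CPM in AAV2-GFP. AAV2-GFP 2 stood well above its 2 fellow controls, and the log2 difference of 1.56 had a large error (SE 0.48, edgeR, adjusted p = 0.154). Spib, an ETS family factor of B cells and plasmacytoid dendritic cells, had 89.3 and 61.0 CPM in AAV2-Cre, against 31.6, 37.3 and 11.3 CPM in AAV2-GFP. Ikzf3, a zinc finger factor of lymphocytes, differed by 0.98 (edgeR, adjusted p = 0.0706).

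Pax5, which sets B cell identity, was scarce. It had 1.56 and 2.09 CPM in AAV2-Cre, against 1.32, 0.301 and 1.07 CPM in AAV2-GFP. Per kilobase of exon it was the lowest of the 33 in AAV2-Cre, at a mean of 0.206 CPM per kb, against 37.2 CPM per kb of Cd79a, a gene it is known to activate. Pou2f2, the octamer-binding factor Oct-2, had 69.4 and 69.1 CPM in AAV2-Cre, within the range of 45.8, 84.7 and 97.8 CPM in AAV2-GFP. Bach2, a repressor that holds B cells back from becoming plasma cells, had 4.82 and 6.89 CPM in AAV2-Cre and 4.92, 7.59 and 6.17 CPM in AAV2-GFP. The groups of Pou2f2 and Bach2 overlapped, and their log2 differences were -0.18 and -0.13.

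The promoters of these genes were searched because the genes share regulators in B cells. RefSeq promoter windows (GRCm38.p6, 250 bases before to 50 after the start of transcription) were found for 27 of the 33 genes, 33 windows in all, and not for Blk, Cd79b, Ikzf3, Ly6d, Ms4a1 and Mzb1. The octamer ATGCAAAT, searched on both strands, stood in the windows of Blnk and Vpreb3, beside 1.74% of all 32851 windows. The palindrome of early B cell factor, TCCC and GGGA with any 2 bases between, stood in that of Cd22, beside 0.904% of all windows. The ETS-type sequence GAGGAAGT, searched on both strands, stood in those of Btla, Cd37, Cd72 and Fcrl1, beside 3.20% of all windows. None of the 3 stood in the window of Cd79a, the gene with the smallest p. A match is a run of letters and was not read as a bound site. The windows below show 1 example of each motif in capitals, and Cd79a without one. The octamer of Blnk (chr19:40994172-40994471, minus strand) is printed as its reverse complement and begins 130 bases before the start, the palindrome of Cd22 (chr7:30878979-30879278, minus strand) begins 49 bases before it, and the ETS-type match of Cd72 (chr4:43454577-43454876, minus strand), also as its reverse complement, begins 49 bases before it. Cd79a lies at chr7:24897247-24897546 on the plus strand.
Blnk: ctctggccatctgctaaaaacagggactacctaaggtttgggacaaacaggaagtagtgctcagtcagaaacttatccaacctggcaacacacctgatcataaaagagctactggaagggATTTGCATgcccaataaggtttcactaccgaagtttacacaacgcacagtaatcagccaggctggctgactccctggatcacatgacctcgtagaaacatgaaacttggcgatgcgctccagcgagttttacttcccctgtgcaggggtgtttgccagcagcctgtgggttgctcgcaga
Cd22: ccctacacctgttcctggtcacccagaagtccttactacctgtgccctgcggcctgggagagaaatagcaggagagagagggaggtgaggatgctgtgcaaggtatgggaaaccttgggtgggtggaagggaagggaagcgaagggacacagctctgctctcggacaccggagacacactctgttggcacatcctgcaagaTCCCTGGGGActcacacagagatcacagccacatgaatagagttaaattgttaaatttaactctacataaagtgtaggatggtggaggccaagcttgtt
Cd72: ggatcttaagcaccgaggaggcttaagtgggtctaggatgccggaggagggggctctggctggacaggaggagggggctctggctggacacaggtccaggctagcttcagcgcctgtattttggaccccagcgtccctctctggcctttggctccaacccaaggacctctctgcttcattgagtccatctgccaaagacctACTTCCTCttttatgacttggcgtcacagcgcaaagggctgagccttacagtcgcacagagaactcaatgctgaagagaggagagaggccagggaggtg
Cd79a: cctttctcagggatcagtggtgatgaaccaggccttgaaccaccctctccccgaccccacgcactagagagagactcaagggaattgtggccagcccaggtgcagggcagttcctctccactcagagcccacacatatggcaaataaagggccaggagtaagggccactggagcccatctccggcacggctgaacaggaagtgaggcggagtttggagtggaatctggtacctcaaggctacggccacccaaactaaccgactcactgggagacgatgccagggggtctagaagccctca

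Of the 4 genes of the BAFF and APRIL system that were tested, edgeR called 1 higher and 0 lower, 2 were higher and 1 was lower at an unadjusted p under 0.05, and DESeq2 called 2 higher and 1 lower. Of the receptors, Tnfrsf13c, which encodes the BAFF receptor of mature B cells (chr15:82221743-82224369, GRCm38), carried 64.7 and 59.3 CPM in AAV2-Cre, against 21.2, 22.2 and 24.0 CPM in AAV2-GFP. It rose by 1.42 on the log2 scale with tight replicates (SE 0.18, edgeR, adjusted p = 0.0114). Tnfrsf13b, which encodes TACI, a receptor for both cytokines, had the highest CPM of the 5, with 145 and 122 CPM in AAV2-Cre and 59.6, 75.9 and 87.0 CPM in AAV2-GFP. Its difference of 0.81 was not called (SE 0.20, edgeR, adjusted p = 0.0813). Tnfrsf17, which encodes the plasma cell receptor BCMA, was close to absent, at 0.638 and 0.443 CPM in AAV2-Cre and 0.208, 1.39 and 0.356 CPM in AAV2-GFP.

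Per kilobase, the ligands Tnfsf13 and Tnfsf13b lay at means of 3.18 and 2.86 CPM per kb in AAV2-Cre, below the 47.2 and 30.3 CPM per kb of Tnfrsf13b and Tnfrsf13c. Tnfsf13b, which encodes BAFF, had 17.7 and 21.7 CPM in AAV2-Cre and 10.1, 14.2 and 18.7 CPM in AAV2-GFP, and these groups overlapped. Tnfsf13, which encodes APRIL, had 4.96 and 5.44 CPM in AAV2-Cre, against 11.8, 11.4 and 9.86 CPM in AAV2-GFP. Every AAV2-Cre library thus lay below every AAV2-GFP library, with a log2 difference of -1.12 (SE 0.31) that edgeR did not call (adjusted p = 0.118) and DESeq2 did (adjusted p = 0.0357). The study itself picked Tnfsf13 on these samples, and also reported it lower by real-time PCR in RGCs of Kdm6a knockout mice after crush. Because of that choice, the direction of Tnfsf13 here is not independent evidence. Of its 1637 exon bases, 1204 overlap exons of Tnfsf13os and Tnfsfm13. How reads in the overlap were counted is not given, so the level of Tnfsf13 alone is uncertain.

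The 3 stage genes had positive differences with a median of 1.59, and 0 were called in edgeR, 2 were higher at an unadjusted p under 0.05 and DESeq2 called 1 higher. Mzb1, a chaperone of antibody assembly in plasma cells and marginal zone B cells, carried 107 and 136 CPM in AAV2-Cre, against 18.0, 61.7 and 50.6 CPM in AAV2-GFP. AAV2-GFP 1 lay well below its fellow controls, and the log2 difference was 1.43 (SE 0.41, edgeR, adjusted p = 0.132). Per kilobase, Mzb1 came after Cd72 with a mean of 99.7 CPM per kb in AAV2-Cre. Ly6d, a surface protein of early B lineage cells and plasmacytoid precursors, had 10.8 and 20.7 CPM in AAV2-Cre, against 5.41, 2.11 and 4.45 CPM in AAV2-GFP. Vpreb3, which helps to assemble the receptor of immature B cells, averaged 1.98 ± 0.30 CPM in AAV2-Cre (SD, n = 2) and 0.628 ± 0.813 CPM in AAV2-GFP (SD, n = 3).

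Genes outside the 33 were read from lists to see which stages of the B lineage were present. Of 20 other receptor signaling genes, 3 were higher and 0 lower in AAV2-Cre (Ptpn6, a phosphatase, by 0.89, the adaptor Pik3ap1 by 0.94 and the phospholipase Plcg2 by 0.99 on the log2 scale), while 13 were higher at an unadjusted p under 0.05 and DESeq2 called 8 higher. Myeloid cells use these 3 genes too. Of 5 genes that guide B cells to follicles, 4 were higher, with Ccr7 at 66.7 and 73.9 CPM in AAV2-Cre, against 23.0, 22.9 and 23.2 CPM in AAV2-GFP (log2 fold change 1.57, edgeR, adjusted p = 0.00698). Cxcr5, the receptor that leads B cells into follicles, and Ccr6 were among the others, at 1.69 and 1.67 on the log2 scale, and T cells use Ccr7 as well. Of 10 plasma cell genes, edgeR called 2 higher, 8 were higher at an unadjusted p under 0.05 and DESeq2 called 3 higher. The 2 called in edgeR were Derl3, which serves protein quality control, and Xbp1, a factor of the secretory program, with log2 fold changes of 1.92 and 0.94. Of 11 immunoglobulin constant genes, edgeR called 1 higher, 8 were higher at an unadjusted p under 0.05 and DESeq2 called 3 higher. The gene called in edgeR was Ighg2b, at 3529 and 1691 CPM in AAV2-Cre, against 172, 312 and 269 CPM in AAV2-GFP (log2 fold change 3.34, edgeR, adjusted p = 0.00698). The Ighg genes are close in sequence, so the split of reads among them is uncertain.

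Other lists of the lineage held no called gene. Of 8 germinal center genes, 5 were tested and 0 were called in edgeR, with 0 at an unadjusted p under 0.05 and 0 in DESeq2. Of 8 precursor genes, 3 were tested and 0 called in edgeR, 1 was higher at an unadjusted p under 0.05 and DESeq2 called 1 higher. Vpreb1 and Vpreb2, the surrogate light chain genes, were at 0 in all 5 injured libraries and Rag1, the recombinase, in both AAV2-Cre libraries. Antibody genes were abundant by contrast, with Igkc, the kappa constant gene, at 13927 and 17749 CPM in AAV2-Cre and 2673, 8851 and 7443 CPM in AAV2-GFP.

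Markers of other blood cells were read beside the B cell genes. Markers of T and NK cells summed to 1312 and 783 CPM in AAV2-Cre, against 346, 622 and 621 CPM in AAV2-GFP. All 15 had a positive difference, 0 were called in edgeR, 13 were higher at an unadjusted p under 0.05, DESeq2 called 8 higher, and none was at 0 in either group. Markers of microglia and macrophages summed to 6855 and 8717 CPM in AAV2-Cre, against 4908 to 7473 CPM in AAV2-GFP. Of these 11, 0 were called in edgeR, 2 were higher and 1 was lower at an unadjusted p under 0.05, and DESeq2 called 1 lower. Markers of plasmacytoid dendritic cells, which also transcribe Spib, summed to 657 and 670 CPM in AAV2-Cre, against 504, 604 and 588 CPM in AAV2-GFP. Of these 7, edgeR called 1 higher (Bst2, which interferon also induces), 5 were higher at an unadjusted p under 0.05, DESeq2 called 5 higher, and the median log2 fold change was 1.62. Markers of monocytes, neutrophils and dendritic cells summed to 667 and 744 CPM in AAV2-Cre, against 405, 377 and 471 CPM in AAV2-GFP. Of the 9 tested, edgeR called 1 higher (Ly6c2, which some lymphocytes also carry), 4 were higher at an unadjusted p under 0.05, DESeq2 called 2 higher, and the median log2 fold change was 0.87. The part of these cells in the levels of genes they share with B cells was not tested.

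Erythroid and platelet markers summed to 4.54 and 7.08 CPM in AAV2-Cre and 5.69 to 6.95 CPM in AAV2-GFP. The uninjured libraries had 3.47 to 9.30 CPM. How far the sort for Thy1.2 kept or removed these cells was not tested, so their level does not measure blood in the tissue. Of the 2 markers tested, 0 were called in edgeR, with 0 at an unadjusted p under 0.05 and 0 in DESeq2. All 10 rod markers had a negative difference with a median of -0.65, of which 4 were lower at an unadjusted p under 0.05, 0 were called in edgeR and DESeq2 called 1 lower. Their part in the CPM of other genes was not tested.

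**Figure D2:**
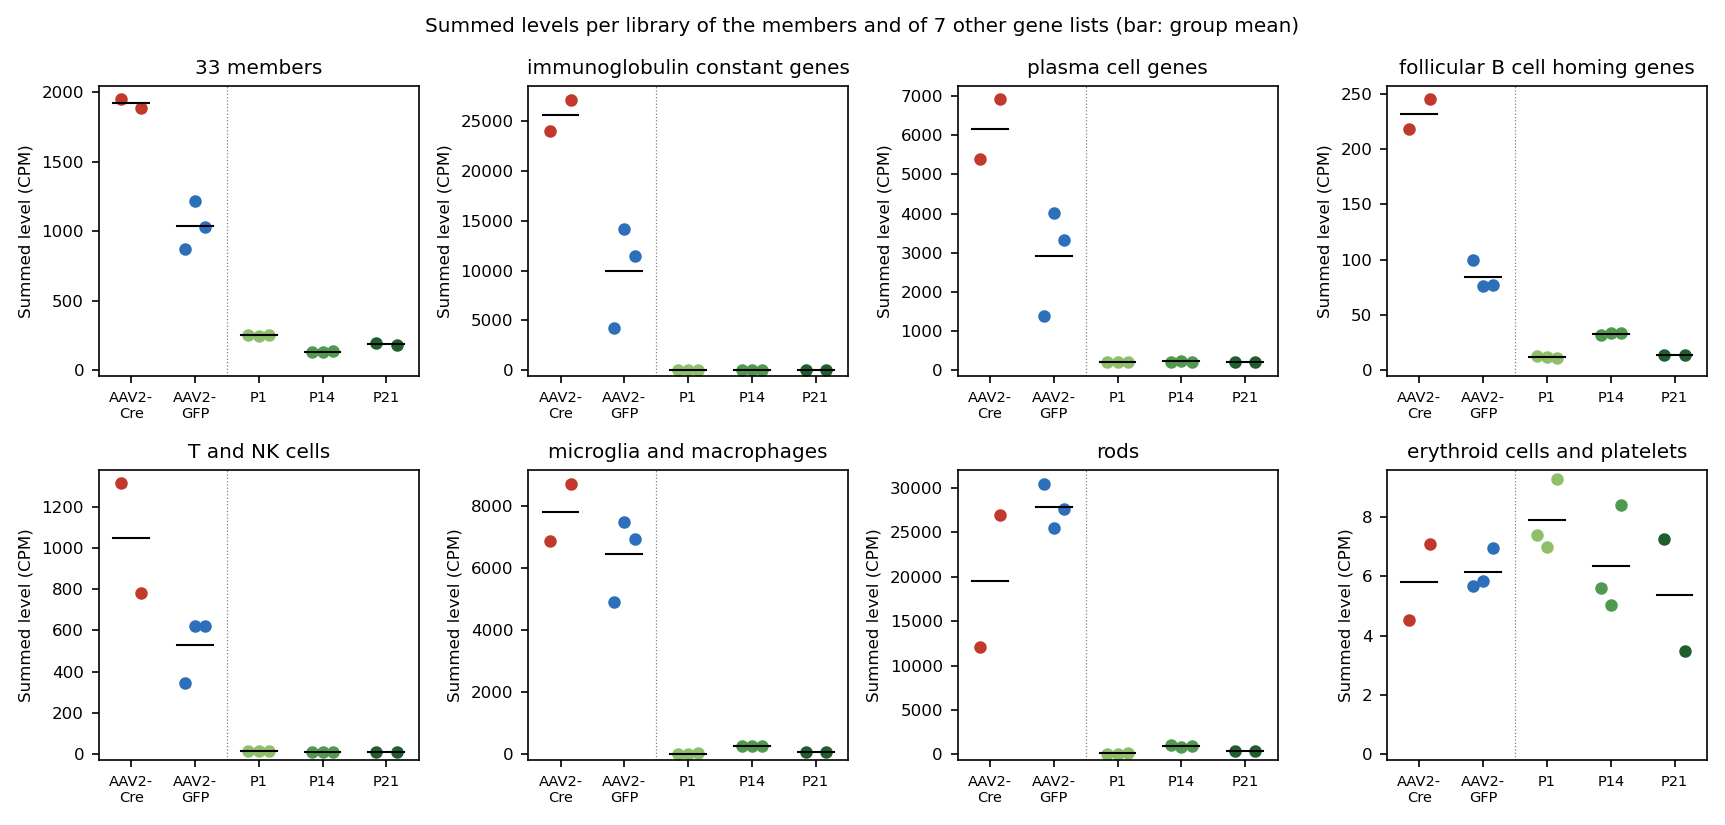
Summed levels in CPM per library of the 33 genes and of 7 other gene lists in the 5 groups, with bars at group means and linear axes from 0. The 33 genes lie at 1888 CPM or more in AAV2-Cre and at 1217 CPM or less in AAV2-GFP, while the erythroid and platelet list stays below 10 CPM in every group.

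The injured libraries of 1 group also differed among themselves. Of the 33 genes, 17 were highest in AAV2-Cre 1 and 10 in AAV2-Cre 2, while 15 were lowest in AAV2-GFP 1 and 10 in AAV2-GFP 3. Among the controls alone, plasma cell and antibody genes were lowest in AAV2-GFP 1. This held for 9 of 9 plasma cell genes and 9 of 10 immunoglobulin constant genes with a mean of at least 1 CPM, beside 32.2% of all 16353 such genes. T and NK cell markers and microglia markers were lowest there too, in 14 of 15 and 9 of 11 cases. Of the 33 genes, 30 had such a mean, and 15 of these were lowest in AAV2-GFP 1. Only 7 of the 30 were highest there, 23.3%, beside 36.4% of all such genes. Cd79b, at 24.6, 33.4 and 29.5 CPM in the AAV2-GFP libraries, and Tnfrsf13c were among the lowest there. Ms4a1 and Bank1, with 15.1, 8.43 and 9.62 CPM in the AAV2-GFP libraries, were among the 7 highest in AAV2-GFP 1. Cxcr5 showed the same order, at 12.5, 8.07 and 9.86 CPM. Jchain, the joining chain of secreted antibody, had 4315 and 5624 CPM in AAV2-Cre, and 879, 3311 and 2645 CPM in AAV2-GFP. These genes were singled out after their values were seen, and the pattern rests on 3 libraries.

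**Figure D3:**
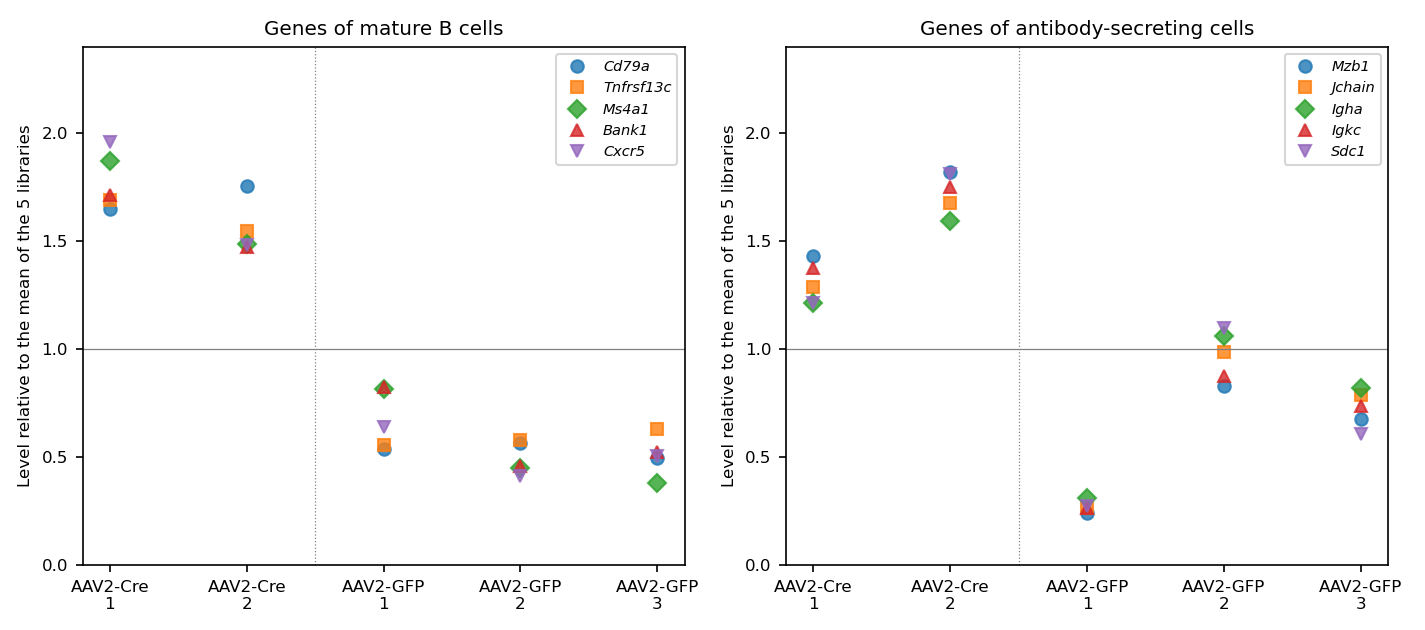
Levels of 5 genes of mature B cells (left) and 5 genes of antibody-secreting cells (right) in each injured adult library, each divided by the mean of its 5 libraries. Among the AAV2-GFP libraries, replicate 1 is lowest for all 5 genes on the right. On the left it is highest for Ms4a1, Bank1 and Cxcr5 and lowest for Tnfrsf13c.

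The next question was how these genes behaved while the retina matured. Most were close to 0 in the uninjured libraries. Of the 33 genes, 22 stayed under 1 CPM in all 8 libraries and only 4 passed 5 CPM in any of them, namely Ralgps2, Pou2f2, Bach2 and Tnfsf13. The 33 genes summed to 250 to 255 CPM at P1, 129 to 138 CPM at P14 and 193 and 184 CPM at P21. In a fit of these 8 libraries, 20 of the 33 passed the low-count filter. Between P14 and P1, 5 were higher and 5 lower, beside 33.6% of all 20890 genes tested called higher and 33.6% called lower. Between P21 and P14, 3 were higher and 5 lower, beside 14.6% and 19.3% of all genes. Without scaling beyond library size, 2326 genes were called higher and 4722 lower in that step, against 3047 and 4024 with it.

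Of the genes over 5 CPM, 3 were lower at P14 than at P1 and higher at P21 than at P14. Bach2, which neurons also transcribe, had 72.3, 67.3 and 74.1 CPM at P1, 11.3, 13.3 and 13.3 CPM at P14, and 21.1 and 16.6 CPM at P21. It fell by 2.53 on the log2 scale at P14 relative to P1 (SE 0.10, edgeR, adjusted p = 1.92e-08) and rose by 0.65 at P21 relative to P14 (SE 0.11, edgeR, adjusted p = 0.00139). Pou2f2 followed the same course, with 66.0, 65.5 and 71.2 CPM at P1, 19.4, 21.8 and 20.9 CPM at P14, and 30.7 and 30.6 CPM at P21. Its log2 fold changes were -1.74 at P14 over P1 (SE 0.06, edgeR, adjusted p = 1.63e-08) and 0.64 at P21 over P14 (SE 0.07, edgeR, adjusted p = 0.000144). Ralgps2 moved less, with 103, 103 and 92.0 CPM at P1, 70.9, 69.3 and 75.0 CPM at P14, and 123 and 119 CPM at P21. It fell by 0.50 and then rose by 0.82 on the log2 scale (edgeR, adjusted p = 4.29e-05 and 2.96e-05).

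Tnfsf13 ran against these 3 genes. It had 2.57, 2.47 and 1.22 CPM at P1, 12.2, 11.7 and 12.5 CPM at P14, and 9.75 and 9.44 CPM at P21. It rose by 2.51 on the log2 scale at P14 relative to P1 (SE 0.22, edgeR, adjusted p = 4.33e-06), and its difference of -0.27 between P21 and P14 was not called (edgeR, adjusted p = 0.380).

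Cd37 and Blnk, which myeloid cells also transcribe, peaked at P14. Cd37 had 0.358, 0.376 and 0.465 CPM at P1, 4.12, 3.79 and 3.95 CPM at P14, and 1.54 and 1.78 CPM at P21, with log2 fold changes of 3.26 and -1.18 (edgeR, adjusted p = 9.55e-07 and 0.00344). Blnk had 0.149, 0.156 and 0.233 CPM at P1, 2.27, 2.54 and 2.50 CPM at P14, and 0.961 and 1.10 CPM at P21, with log2 fold changes of 3.70 and -1.16 (edgeR, adjusted p = 3.26e-06 and 0.0124). Microglia and macrophage markers moved in the same way, at 14.6 to 31.2 CPM at P1, 261 to 271 CPM at P14, and 67.3 and 76.7 CPM at P21, with 11 of 11 called higher and then 10 of 11 called lower. No marker of that list was at 0 at any age, and their part in Cd37 and Blnk was not tested.

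The other calls were of scarce transcripts. Cd72 fell at both steps, with log2 fold changes of -1.37 and -0.87 (edgeR, adjusted p = 0.000214 and 0.0283), and never passed 4.62 CPM. Fcer2a fell by 1.17 and Tnfrsf13c rose by 1.48 at P14 relative to P1 (edgeR, adjusted p = 0.0253 and 0.0274). Cd22, which rose by 2.80 at P14 relative to P1 (edgeR, adjusted p = 0.0200), had 33 counts in all at P14 and 0 at P21, at least 7.05-fold lower against a floor of 3 counts over the P21 group (edgeR, adjusted p = 0.0145). Pax5 had 16 counts at P14 and 0 at P21, at least 3.51-fold lower against the same floor (edgeR, adjusted p = 0.0491). With no count at P21, both genes could only come out lower there. Cd22 also passed the low-count filter through P14, where it was highest, so neither of its steps was a free test. The steps to P21 rested on 2 libraries, and the calls of Cd22, Pax5 and Blnk were lost without P21 1 (edgeR, adjusted p = 0.0656, 0.143 and 0.0543), and those of Cd22, Pax5 and Cd72 without P21 2 (edgeR, adjusted p = 0.0704, 0.150 and 0.139). The Pax5 and Cd72 calls were also lost without P14 2 or P14 3, the Fcer2a call without P1 3 or P14 2, and the Tnfrsf13c call at P14 without P1 1, P1 2, P14 1 or P14 3, with adjusted p between 0.0534 and 0.118 in edgeR. The defining genes Cd79a and Ms4a1 stayed at or below 0.396 CPM and 0.132 CPM in every uninjured library.

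The last comparison set the injured controls against the oldest uninjured retinas. Dataset, age, floxed genotype, virus and crush all differ between AAV2-GFP and P21, and cannot be told apart. In a fit of all 13 libraries, each of the 33 genes was tested. At AAV2-GFP relative to P21, 28 were higher and 2 lower, beside 32.6% of all 23844 genes tested called higher and 33.9% called lower. Of the 33, 10 had no count at P21 and passed the low-count filter through other groups, so against P21 they could only come out higher. Cd79a, Cd79b, Spib, Pou2af1 and Tnfrsf17 had at most 8 counts in a P21 library and failed the filter among the uninjured libraries. They were thus tested here only through the injured groups, where they were high, so their calls are no free test either. With at least 10 counts in every library, 8 were tested, 5 were higher and 2 lower, beside 5068 and 5455 of 13292 genes. In 25 of the 33 genes, all 5 injured libraries lay above all 8 uninjured ones, beside 22.0% of all genes, and 1, Bach2, lay below, beside 25.0%. The median log2 fold change was 7.40, beside 0.01 over all genes, and 6.53 with the genes absent at P21 set to their lower bounds. Markers of other cells differed as well. T and NK cell markers lay at 346 to 622 CPM in AAV2-GFP and 9.01 and 9.77 CPM at P21. Microglia markers lay at 4908 to 7473 CPM and 67.3 and 76.7 CPM, and rod markers at 25489 to 30499 CPM and 399 and 361 CPM. Markers of Mueller glia went the other way, at 2746 to 4759 CPM in AAV2-GFP and 33846 and 34749 CPM at P21, with 6 of 7 called lower. Of 11 RGC markers, 7 were called lower and 2 higher. The part of all these cells in the result was not tested.

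At P21, 10 of the genes had no count in either library, and their folds are bounds against a floor of 3 counts over the group, 0.0428 CPM. Cd22, at 28.6, 38.2 and 24.5 CPM in AAV2-GFP, was at least 711-fold higher, Ms4a1 at least 505-fold, Fcrla at least 250.2-fold, Fcmr at least 247-fold, Siglecg at least 215-fold and Blk at least 200.2-fold. Fcrl1, Ly6d, Fcrl5 and Pax5 were at least 104-fold, 93.2-fold, 56.9-fold and 20.9-fold higher. Of the genes with counts at P21, Cd72 had 218, 292 and 225 CPM in AAV2-GFP, against 0.961 and 0.713 CPM at P21, a log2 fold change of 8.21 (SE 0.24, edgeR, adjusted p = 2.74e-11). Tnfrsf13c differed by 6.53 and Cd37 by 5.57 on the log2 scale (edgeR, adjusted p = 1.03e-09 and 6.45e-10). Mzb1 differed by 6.17 and Tnfrsf13b by 7.88 (edgeR, adjusted p = 3.42e-07 and 1.05e-08). The 18 called genes with counts at P21 were 2.52-fold to 1027-fold higher, with a median of 88.8-fold. Some of these folds rest on P21 counts near the floor and are uncertain in size. Pou2af1, the 1027-fold gene, had 0 and 3 counts at P21, Bank1 0 and 2, and Lax1 1 and 6.

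The 4 genes that passed 5 CPM in the uninjured retina had differences between -1.57 and 1.34 on the log2 scale. Pou2f2 was higher in AAV2-GFP than at P21 by 1.34 on the log2 scale (SE 0.23, edgeR, adjusted p = 0.000160), and its AAV2-GFP range of 45.8 to 97.8 CPM spanned the P1 levels. Bach2, at 4.92, 7.59 and 6.17 CPM in AAV2-GFP and 21.1 and 16.6 CPM at P21, fell by 1.57 (SE 0.19, edgeR, adjusted p = 7.70e-06). Ralgps2 fell by 0.26 (SE 0.09, edgeR, adjusted p = 0.0279), a call that held in 3 of 13 alternatives and was lost without AAV2-GFP 1 and without either P21 library (edgeR, adjusted p = 0.0565, 0.125 and 0.0757). Tnfrsf17, called with a log2 fold change of 3.84 (edgeR, adjusted p = 0.0495), was lost without AAV2-GFP 2 and without either P21 library (edgeR, adjusted p = 0.161, 0.0533 and 0.221). Cr2, Tnfsf13 and Vpreb3 were not called, with log2 differences of 0.38, 0.23 and -0.15. Tnfsf13 lay below the span of the P14 and P21 libraries, 9.44 to 12.5 CPM, in AAV2-Cre and within it in AAV2-GFP.

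**Figure D4:**
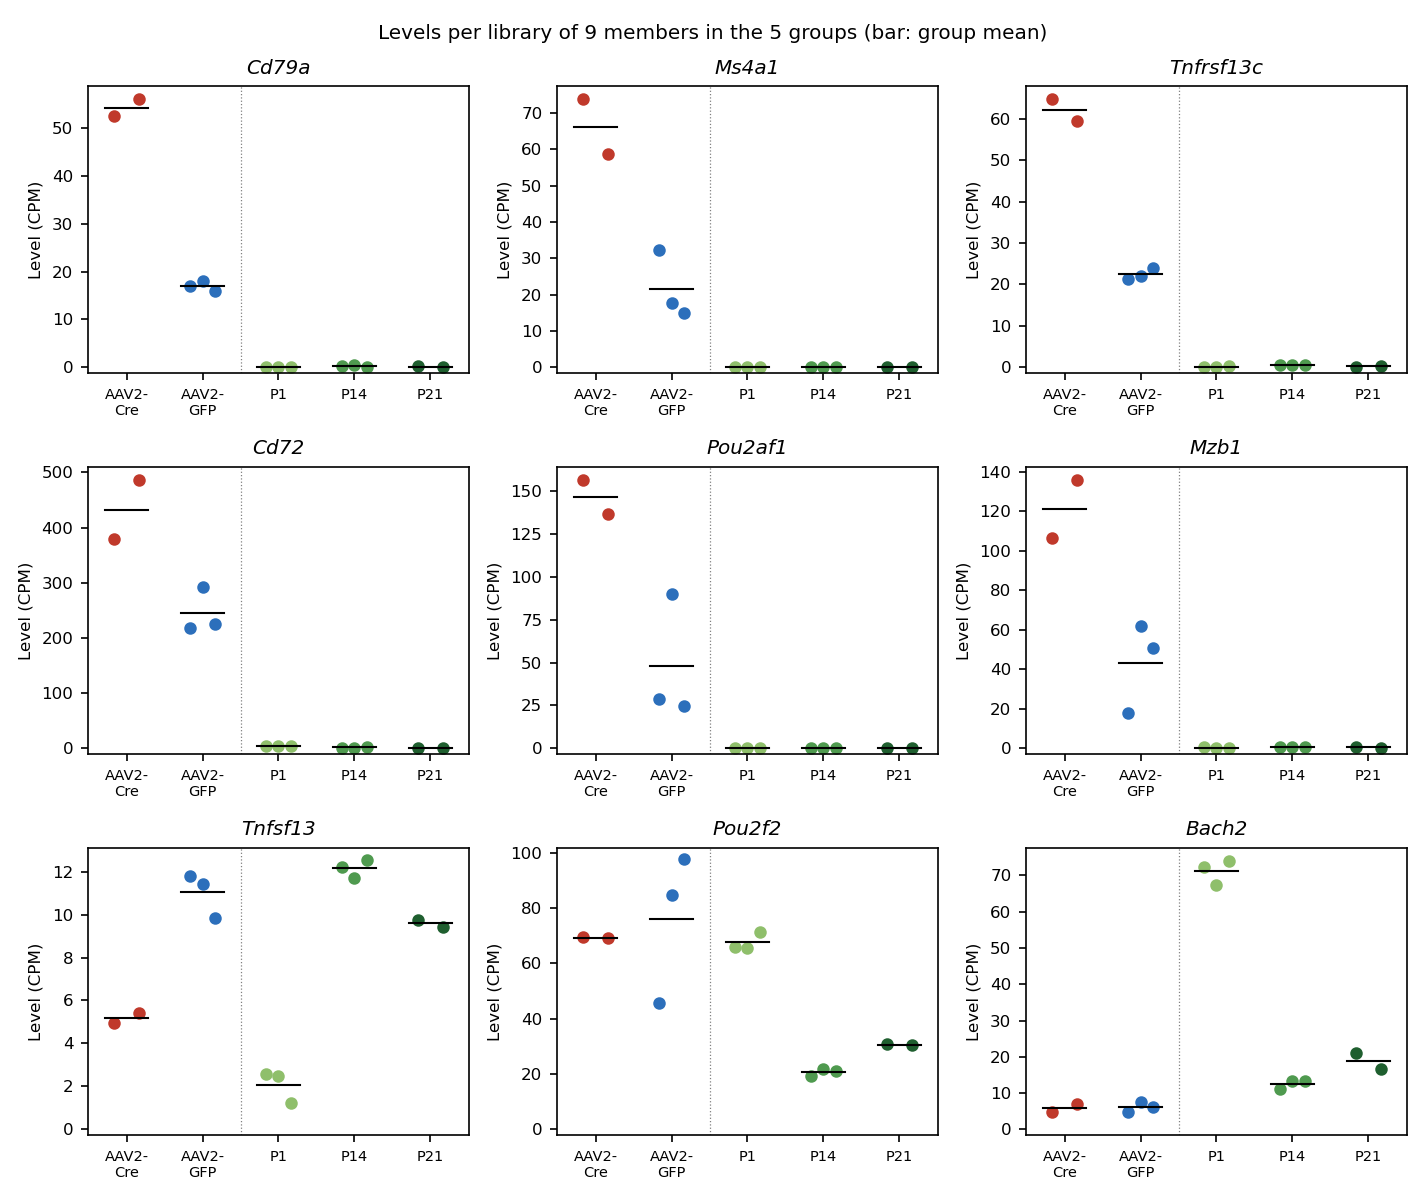
Levels in CPM of 9 of the 33 genes in every library of the 5 groups, with bars at group means and linear axes from 0. Cd79a, Ms4a1, Tnfrsf13c, Cd72, Pou2af1 and Mzb1 lie near 0 at P1, P14 and P21. Tnfsf13, Pou2f2 and Bach2 do not, and Bach2 is highest at P1, at 67.3 to 74.1 CPM.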

How the data were processed

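Poly-A RNA of Thy1.2-sorted cells was sequenced from libraries made with the NEBNext Ultra kit. Per the study and the processing notes, trimming used Trimmomatic 0.39, quality control FastQC 0.11.9 and alignment HISAT2 2.2.1 on GRCm38 (mm10). The authors deposited whole-number counts per gene from featureCounts (Subread 2.0.3), with no normalization. The annotation and the strand setting are not given in the sources used here. Ensembl IDs without the version were matched to symbols and exon lengths of the GENCODE annotation of GRCm38, and 147 of 52550 had no symbol.

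In R 4.3.3, edgeR 4.0.16 (glmQLFit and glmQLFTest, TMM, filterByExpr) was fitted to the 5 injured libraries, to the 8 uninjured ones and to all 13, with Benjamini-Hochberg adjustment over all genes of a fit and a threshold of 0.05. The fits were tested on simulated data. Alternatives were DESeq2 1.42.0, its size factors, no scaling, no filter, a stricter filter (10 counts in each library), a fold limit, a replicate block, another set of libraries in the fit and each library left out. The 33 genes and all lists were chosen with earlier results of these data known. Values in every library are given for genes that head their role group, that were called or that went against their group, and the others by range or difference. The study calls its replicates biological. Where nothing says that libraries came from separate animals, p-values measure only the spread between them. No pair of replicates agreed within sampling noise. Floors cover counting error only. Some genes of the other lists are not reported here.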

Additional observations from a re-analysis of the deposited data

How the results depend on the processing

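Between AAV2-Cre and AAV2-GFP, 4 genes were called, against 2 without scaling, 18 without a low-count filter, 9 with at least 10 counts in every library, 11 in the fit of all 13 libraries, 16 with DESeq2 and 0 to 4 with a library left out. The 4 were among those called under each of these except no scaling and the left-out libraries. The median was 0.88 to 1.08 with a library left out. Over all genes, 244 higher and 54 lower calls became 758 and 488 with DESeq2, 969 and 543 without a filter, 1433 and 1071 in the fit of all 13 libraries and 378 and 152 with at least 10 counts. Between P14 and P1, the median of 0.31 became 0.77 without a filter, 0.77 with DESeq2, 0.72 in the fit of all 13 libraries and -0.64 with at least 10 counts, where 8 genes were tested and 6 called. With a library left out it was 0.11 to 0.50, with 8 to 10 called. Without scaling the median of all genes moved to 0.11 there, and DESeq2 size factors moved it to 0.11 between AAV2-GFP and P21. Between P21 and P14, 8 calls became 5 with at least 10 counts and 4 with a fold limit, and the median of -0.36 became -0.89 without a filter, -0.89 with DESeq2 and -0.93 in the fit of all 13 libraries. With a library left out, 5 to 7 were called and the median was -0.70 to -0.26. Between AAV2-GFP and P21, 7 of 8 genes tested were called with at least 10 counts, at a median of 3.07, and 28 to 30 with a library left out, at 7.10 to 7.56. The stricter filter tests fewer genes, and the cause of the other shifts was not tested. No gene called in the report changed direction under these alternatives.

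The replicate numbers did not pair the samples, with correlations of same-numbered deviations from -0.040 to 0.024. With a replicate block, 3 genes were called between AAV2-Cre and AAV2-GFP, 9 between P14 and P1, 4 between P21 and P14 and 28 between AAV2-GFP and P21. Counts under 10 limit what can be said of Pax5, Cr2, Vpreb3 and Tnfrsf17 in single libraries.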
